A study of Mus musculus with 4 samples.

Results

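The Hox genes encode homeodomain transcription factors and lie in 4 clusters of the mouse genome, and chromatin accessibility at their nearest regions was examined in bone marrow-derived macrophages (BMDMs) with and without interleukin-4 (IL-4). Peaks of 4 ATAC-seq libraries were merged into regions wherever they shared at least 1 bp, and each region took the gene name of its highest peak. Of 60710 regions, 12 carried the name of a HoxA, HoxB, HoxC or HoxD gene, and 6 of the 12, at 5 genes, are described here. ATAC-seq marks DNA that a transposase can reach, so a peak is a stretch of accessible chromatin.

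BMDMs were grown for 6 days from the bone marrow of wild-type mice aged 8-12 weeks in medium with L929 supernatant, a source of macrophage growth factor. The control group had 2 untreated libraries and the IL-4 group had 2 libraries of cells given IL-4 at 20 ng/ml for 1 h. The study described the libraries as biological replicates, and the labels did not say whether they came from separate animals. The series was made to ask how IL-4 alters chromatin and transcription in macrophages.

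In vertebrates the Hox genes of a cluster are transcribed in one direction and numbered by paralogue group, with the low numbers at the 3′ end, which responds first to retinoic acid in the embryo. Polycomb complexes keep the clusters silent where the genes are not used. In blood, HoxA and HoxB genes are active in stem and progenitor cells, often with the TALE cofactors Meis and Pbx, and fall as the cells mature.

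Of the 6 regions, 4 belonged to HoxA, 1 to HoxB, 1 to HoxD and 0 to HoxC. Hoxa7 had 2, and Hoxa4, Hoxa10, Hoxb4 and Hoxd12 had 1 each. The other 33 of 38 Hox genes examined had no region. Among them were Hoxa9 and Hoxb8, which act in blood progenitors, all 9 HoxC genes and 8 of 9 HoxD genes. Each library had a peak in 3 of the 6 regions, so the count was 3.0 ± 0.0 in the control group and 3.0 ± 0.0 in the IL-4 group (SD, n = 2). Which regions made up the 3 differed from library to library.

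The Hoxa4 promoter was the only one of the 6 found in all 4 libraries (16.7%, against 41.9% among all regions), whereas 3 of the 6 were found in 1 library only, against 29.6% of all. Hoxa4 is a paralogue group 4 gene used in axial patterning. Its region, chr6:52191872-52192101 (mm10), is printed because it carried the most reproducible peak of the 6. It is written 5′ to 3′ on the minus strand, which is the gene strand. Capitals mark a CCAAT-box heptamer (CCATTGG, the reverse complement of CCAATGG) and the E-box CACGTG:
Hoxa4 promoter: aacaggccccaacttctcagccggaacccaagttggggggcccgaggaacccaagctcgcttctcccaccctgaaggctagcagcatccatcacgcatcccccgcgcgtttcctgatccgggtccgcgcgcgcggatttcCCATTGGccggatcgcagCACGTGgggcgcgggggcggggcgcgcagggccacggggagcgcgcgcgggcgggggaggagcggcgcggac

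At Hoxa4 CCATTGG stood before CACGTG on the gene strand, with 11 bases between them. CCAAT boxes are bound by NF-Y, and CACGTG is bound by USF and other basic helix-loop-helix factors. This pair of elements was chosen after sequences of Hox regions had been read, that of Hoxa4 among them, and it was then searched on both strands, with at most 15 bases between the elements. It was present in 25 of the 60710 regions (0.041%), and the Hoxa4 and Hoxb4 regions were among the 25. In the Hoxb4 region, in exon 1, the order was the same and 10 bases lay between. Alone, CACGTG was in 3 of the 6 Hox regions, against 6.12% of all regions. CCAATGG on either strand was in 2 of the 6, against 3.27%.

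Around the transcription start sites (TSSs) of all protein-coding genes the pair was also rare. With 500 bases searched on each side of every curated TSS, 33 of 21000 genes (0.16%) held it, and 6 of the Hox genes examined were among the 33, with members in all 4 clusters. Hoxa4 had given rise to the search. Hoxb4 is also one of the 6 regions described, so it cannot be set apart from the sequences that led to the search. Hoxb7, Hoxc12, Hoxd9 and Hoxd13 had no region. The clusters arose by duplication of a common ancestor, so the 6 are not independent. Each element alone was also more frequent at Hox genes. In a narrower promoter window CACGTG was at 12 of 38 Hox genes, against 8.09% of all genes. The CCAAT heptamer was at 8 of 38, against 5.86%. Both were at 3 Hox genes there, Hoxb7, Hoxc12 and Hoxd13, so the count of 6 depends on the window. Whether the single elements account for the pair was not tested. The stretches are shown on the gene strand with both elements in capitals:
Hoxa4: CCATTGGccggatcgcagCACGTG
Hoxb4: CCATTGGctcggaggatCACGTG
Hoxb7: CCATTGGccgaggggatatCACGTG
Hoxc12: CACGTGagtagagcggCCAATGG
Hoxd9: CACGTGggccgcgcgaCCAATGG
Hoxd13: CACGTGtcccggcgcagCCAATGG

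The HoxA and HoxB stretches began with CCATTGG, and those of Hoxc12, Hoxd9 and Hoxd13 began with CACGTG. Their 5′ ends lay at -258 bases from the TSS for Hoxa4, +368 for Hoxb4, -79 for Hoxb7, -71 for Hoxc12, +168 for Hoxd9 and -229 for Hoxd13. The pair was found with and without a peak: Hoxa4 had a peak within 1 kb of the TSS in all 4 libraries, Hoxb4 in 2, and Hoxb7, Hoxc12, Hoxd9 and Hoxd13 in none. Of the 33 genes with the pair, 20 (60.6%) had such a peak in all 4 libraries. The share was 44.0% over all protein-coding genes and 68.9% over those with a CpG-rich promoter, as defined below. A link between the pair and accessibility was not tested.

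The highest peak of the Hoxa4 region was centred 258 bp upstream of the TSS (distances of other regions are likewise those of the highest peak), and longer Hoxa3 transcripts and the antisense gene Hoxaas3 also span it. Peak height is the deposited peak score, read here as the -log10 of the q-value of the peak caller, although its unit is not named. At Hoxa4 it was 9.75 in control 1, 2.66 in control 2, 7.96 in IL-4 1 and 7.86 in IL-4 2. Control 2 stood apart, and control 1 lay above both IL-4 libraries in height. As percentiles within each library the values were 59.2, 3.0, 51.5 and 60.3 in the same order, so that control 1 lay between the IL-4 libraries, and the groups overlapped on either scale. The highest height was 3.67 times the lowest, against a median of 1.93 over all regions found in 4 libraries. Its geometric mean height of 6.35 placed it at percentile 17.3 of the 25442 regions found in all 4 libraries, whose median was 10.3. The plot of heights by library sets it beside the other 5 regions.

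**Figure D1:**
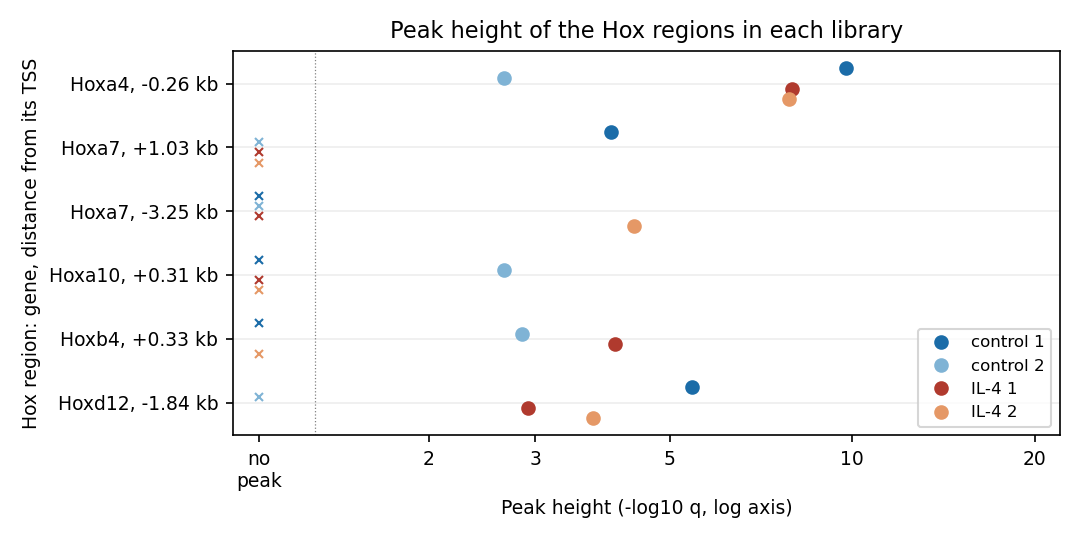
Peak height (read as -log10 q, log axis) of the 6 Hox regions described, in each library, 1 colour per library, with crosses at the left for libraries with no peak. The regions are listed by gene and distance from its TSS. The Hoxa4 region had 4 points, and the other 5 lacked a peak in at least 1 library.

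The effect of IL-4 on height was tested with limma on quantile-normalised log2 heights of all 25442 regions with a peak in every library. Of the 6 regions only Hoxa4 could be tested, and it did not pass an adjusted p of 0.05 (0 of 1), nor an unadjusted p of 0.05 (0 of 1). Over all regions 6 passed (0.0236%), and 8.28% had an unadjusted p under 0.05. With so few calls over the genome, the Hox count is near the background.

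At Hoxa4 the log2 change with IL-4 was 0.84, SE 0.55, with a 95% interval of the difference from -0.25 to 1.94 (adjusted p = 0.723). The SE and interval use a variance drawn in part from all regions tested, and not from the Hoxa4 values alone. The interval is wide, and a doubling of height, a log2 change of 1, lay inside it. The median log2 change over all regions tested was -0.001. Control 2 decided the value: without control 2 the Hoxa4 change was 0.04, and without control 1 it was 1.61, with an unadjusted limma p of 0.0224 and an adjusted p of 0.683.

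None of the 6 regions was found in both IL-4 libraries and neither control (0 of 6, against 2.53% of all regions), and none in both controls and neither IL-4 library (0 of 6, against 4.33%). With 6 members, shares of that size could not be told from 0. The other 5 regions came and went between libraries of the same group.

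From Hoxa7 outwards only single-library peaks were seen in HoxA. Hoxa7, a group 7 gene of trunk patterning, had a height of 4.0 in control 1 in its 5′ UTR (chr6:52217496-52217596). It had a height of 4.37 in IL-4 2 at 3254 bp upstream of its curated TSS (chr6:52221778-52221877). The upstream region overlapped an exon of Hoxa7 in the GENCODE annotation, so it lay within a longer annotated form of the gene. Hoxa10, a group 10 gene that acts in uterus and limb and in blood progenitors, had a height of 2.66 in control 2 in its 5′ UTR (chr6:52240493-52240595). These 3 single-library regions had a median height of 4.0, close to the 3.81 of all such regions.

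The HoxB region was at Hoxb4, a gene known for expanding haematopoietic stem cells. It covered chr11:96318490-96318712 in the 5′ UTR, 334 bp downstream of the TSS, with a height of 2.85 in control 2 and 4.06 in IL-4 1. Each group had 1 library with the peak and 1 without.

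The HoxD region, chr2:74672988-74673231, lay 1837 bp upstream of Hoxd12, between the end of Hoxd13 and the start of Hoxd12, both genes of the distal limb and the posterior body. Its height was 5.44 in control 1, 2.92 in IL-4 1 and 3.73 in IL-4 2, with no peak in control 2. It is shown on the plus strand, the gene strand, because it held a match to the core of the CTCF motif, in capitals:
Hoxd12 upstream: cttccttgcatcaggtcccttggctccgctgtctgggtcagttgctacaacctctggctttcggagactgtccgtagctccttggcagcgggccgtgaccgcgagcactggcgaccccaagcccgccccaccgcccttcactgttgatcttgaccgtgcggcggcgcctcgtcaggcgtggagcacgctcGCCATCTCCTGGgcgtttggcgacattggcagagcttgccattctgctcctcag

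CTCF is an architectural protein with known binding sites between Hox genes. The core searched, CCANNAGNNGGC on either strand, was present in 3 of the 6 Hox regions and in 5.51% of all regions. The 3 were the Hoxd12 region, the Hoxa7 region at -3254 bp and the Hoxa10 region, none of which was found in every library. The match read GCCATCTCCTGG at Hoxa7 and Hoxd12 and GCCATCTCGTGG at Hoxa10, as read on the plus strand of the genome, so that the core itself lay on the minus strand in all 3.

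Motifs of macrophage and IL-4 factors were searched in the same way. The STAT6 motif TTCNNNNGAA was in 0 of 6, against 7.22% of all regions. The PU.1 motif GAGGAAGT was in 0 of 6, against 9.87%, the AP-1 motif TGANTCA in 0 of 6, against 21.85%, and the HOX-PBX motif TGATTNAT in 0 of 6, against 3.18%. With 6 regions, a count of 0 could not be told from any of these shares. Both strands were searched, and the 6 regions, with a median length of 163 bp, were shorter than the 209 bp of all regions.

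Position within the clusters was then compared. The 6 regions lay at paralogue groups 4, 7, 10 and 12, with 2 at group 4, 2 at group 7 and 1 each at groups 10 and 12. Group 4 held the region found in every library, and its members Hoxc4 and Hoxd4 had no region. The other members of group 10, Hoxc10 and Hoxd10, had none either, nor did Hoxb7 or Hoxc12.

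Cluster bounds were taken from the first to the last base of the curated transcripts of the genes examined. HoxA spanned 98.5 kb and held 4 regions, or 4.06 per 100 kb, above the 2.23 per 100 kb of the whole genome. Of these 4, however, 3 were seen in 1 library only. Just 1 was found in all 4 libraries, and the genome held 0.93 such regions per 100 kb. HoxB spanned 173.9 kb and held 2 regions, that of Hoxb4 and a control 1 peak upstream of Mir10a with a height of 5.65. HoxD spanned 96.9 kb and held 1 region. HoxC spanned 115.7 kb and held 0 regions. HoxB and HoxD came to 1.15 and 1.03 regions per 100 kb, and the 4 clusters together to 1.44.

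Long stretches had no peak in any library. The distance between neighbouring regions was 10.28 kb at the median over the genome, and 7.03% of the distances were at least 100 kb. Around HoxC the stretch without a region was 363.9 kb, and at HoxB it was 447.0 kb, from the Hoxb4 region past Hoxb1. In HoxD it was 152.5 kb, from the Hoxd12 region past Hoxd1 to the Mtx2 promoter. In HoxA it was 63.0 kb, from Hoxa10 past Hoxa13 to a region near Evx1.

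**Figure D2:**
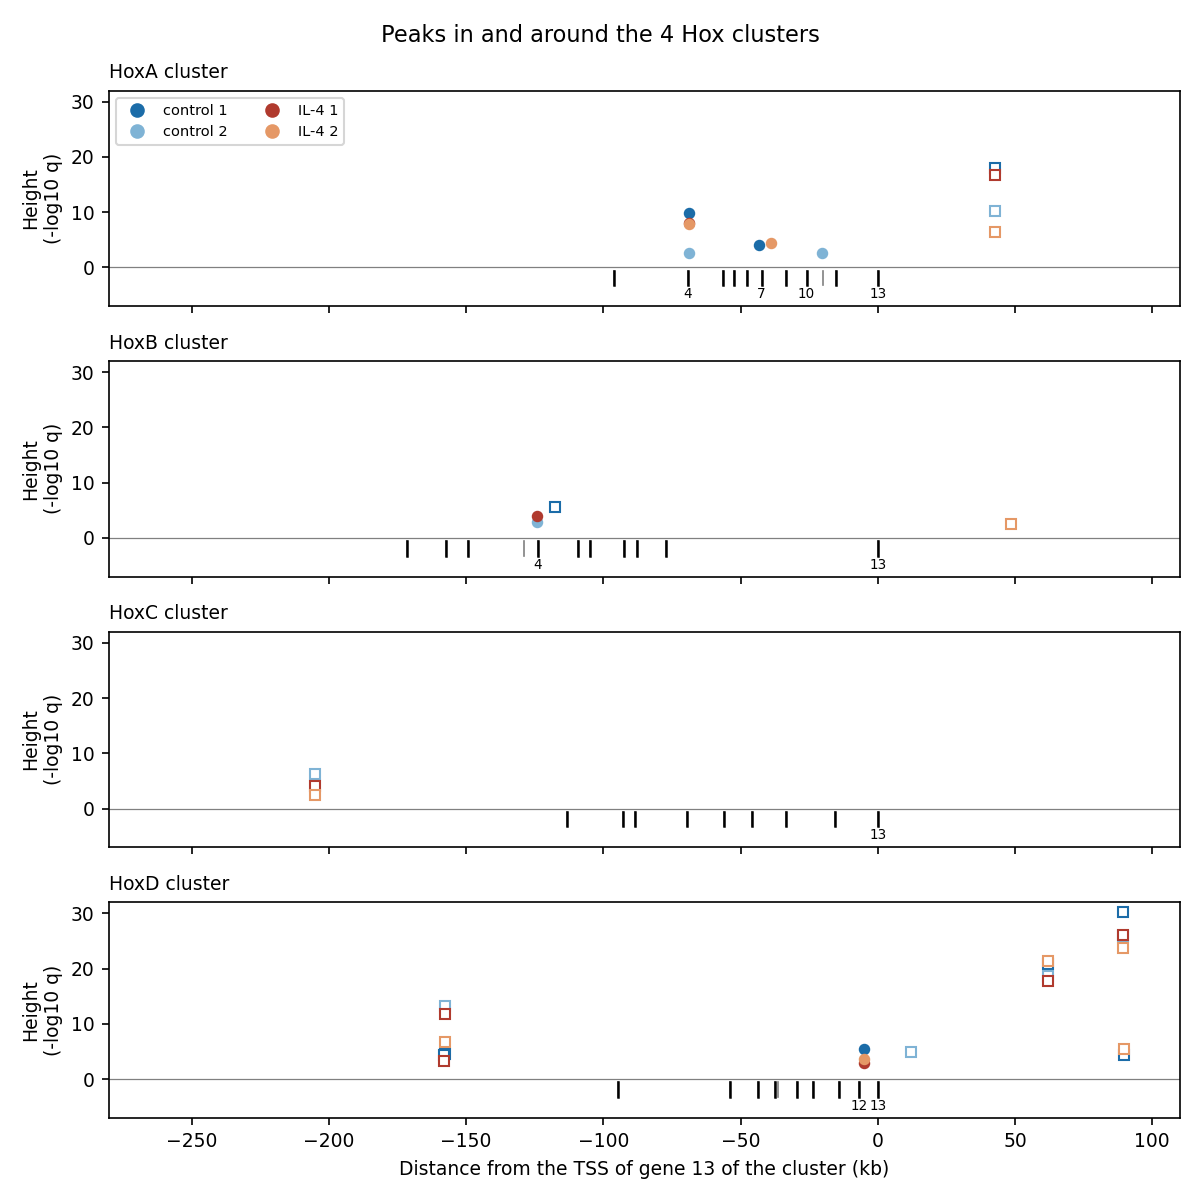
Peak height (read as -log10 q) against distance in kb from the TSS of gene 13 of each cluster, with lower-numbered genes to the left. Filled circles are the 6 Hox regions described, open squares are regions of other genes within 100 kb of the cluster, colours are libraries, black ticks mark the innermost TSS of each Hox gene examined, numbered at gene 13 and at genes with a region, and grey ticks further TSSs. Filled circles lie at HoxA genes 4, 7 and 10, HoxB gene 4 and HoxD gene 12, HoxC has none, and the highest points around HoxD lie outside it.

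Higher peaks than any of the 6 regions lay beyond the borders of HoxA and HoxD. Within 100 kb outside HoxB and HoxC the highest heights were 2.49 and 6.18, below the 9.75 of Hoxa4. The region between Hoxa13 and Evx1, the homeobox gene next to HoxA, was at chr6:52303576-52303788 and had heights of 18.03 in control 1, 10.27 in control 2, 16.7 in IL-4 1 and 6.43 in IL-4 2. In IL-4 2 it lay below the Hoxa4 region, which had 7.86. At HoxD, a region 61.7 kb beyond Hoxd13 named for Lnp had heights of 20.77, 18.58, 17.72 and 21.34 in the same order. Nearer to Hoxd13, a peak in the last exon of Evx2, the homeobox gene next to HoxD, was seen in control 2 only, with a height of 4.95.

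The same was seen gene by gene at promoters, defined here as 1 kb on each side of a curated RefSeq TSS. A peak was there in all 4 libraries for 1 of 38 Hox genes (2.6%), Hoxa4, and for 9230 of 21000 protein-coding genes (44.0%). It was there in at least 1 library for 4 Hox genes (10.5%), against 54.1% of all genes. The 4 were Hoxa4, Hoxa7, Hoxa10 and Hoxb4. Per library 2, 3, 2 and 1 Hox genes had one in control 1, control 2, IL-4 1 and IL-4 2, while the share of all genes ran from 47.7% to 50.3%.

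Other families put the Hox count in context. Of 52 genes of the Dlx, Emx, Gbx, Irx, Lhx, Msx, Nkx, Otx and Pax families, developmental regulators chosen after the Hox result was known, 3 (5.8%) had a promoter peak in all 4 libraries. Of 17 Kruppel-like factors 12 (70.6%) had one. At promoters the macrophage label held: 5 of 6 macrophage genes (Spi1, Cd68, Adgre1, Itgam and Lyz2) had a promoter peak in all 4 libraries and Csf1r, with 10 regions farther away, had none, while 0 of 5 genes of other lineages (Cd3e, Alb, Myod1, Neurod1 and Gata1) had one. Away from promoters the lists were less distinct: Neurod1, a neuronal gene, had 6 regions named for it, 3 of them in all 4 libraries and with a height of up to 34.92, against up to 28.86 at Csf1r, and the other 4 genes of that list had 0 regions.

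**Figure D3:**
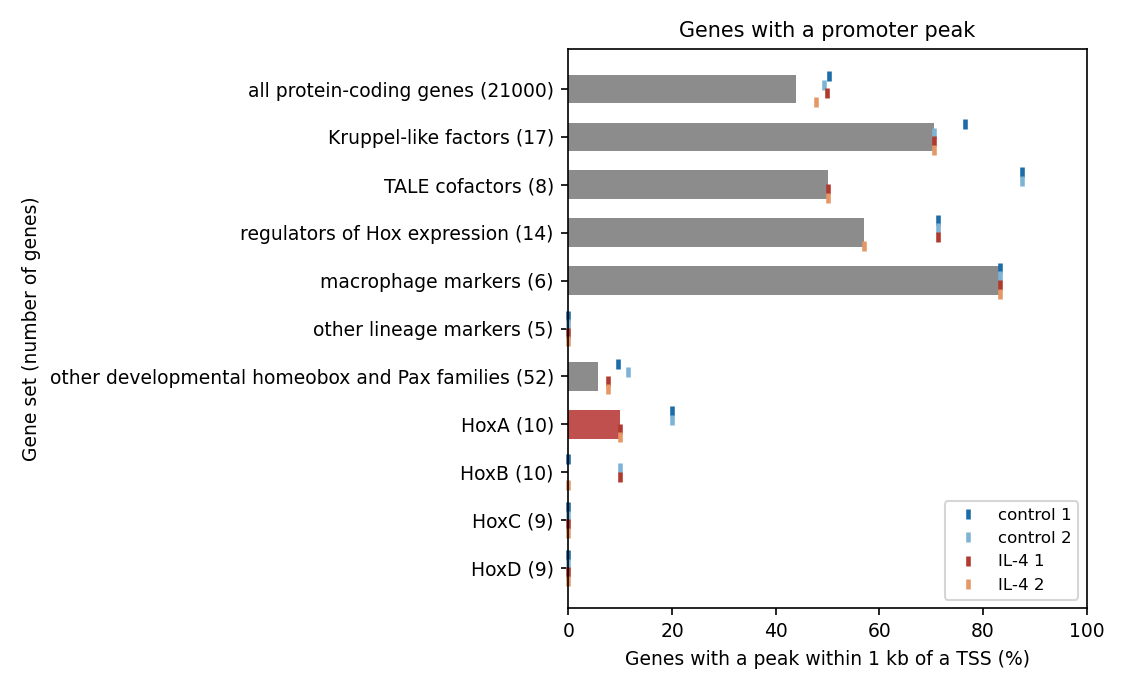
Percent of genes with a peak within 1 kb of a TSS in all 4 libraries (bars) and in each library (coloured ticks), with the number of genes in brackets. Bars of HoxB, HoxC, HoxD and the other lineage markers are at 0%, HoxA is at 10.0% and all protein-coding genes are at 44.0%.

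Many Hox promoters without a peak were CpG-rich. CpG-rich promoters are accessible in most cells, so the observed over expected CpG ratio was computed from 250 bp before to 50 bp after the outermost curated TSS. Its median was 0.671 over the 38 Hox genes, against 0.595 over all genes, 0.793 over genes with a peak in all 4 libraries and 0.26 over genes with no peak. A ratio of at least 0.6 was found for 22 Hox genes. Of those 22, 1 (4.5%) had a promoter peak in all 4 libraries, against 68.9% of all genes with such a ratio and 8.8% of the 34 CpG-rich genes of the other developmental families.

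Hoxa4 had the highest ratio of the 38 (1.233). Hoxc11 (1.087), Hoxa5 (1.02), Hoxb8 (0.97), Hoxb5 (0.932) and Hoxa6 (0.923) followed, with no peak in any library. Hoxa7, Hoxa10 and Hoxb4, which had a peak in 1 or 2 libraries, were at 0.405, 0.596 and 0.593.

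**Figure D4:**
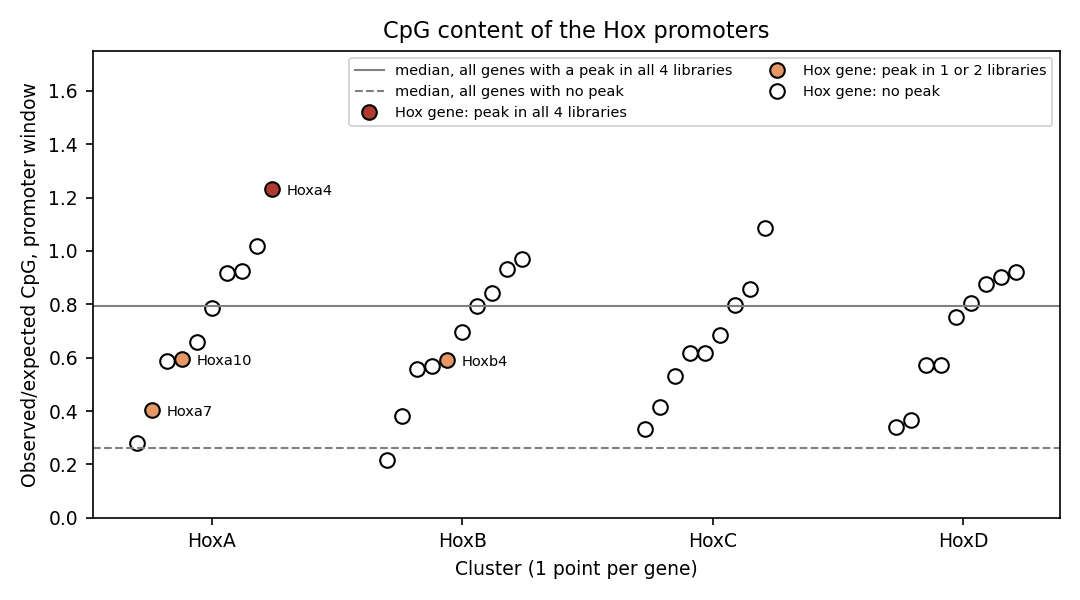
Observed over expected CpG ratio in the promoter window, 1 point per Hox gene by cluster, filled dark where all 4 libraries had a peak within 1 kb of the TSS, light where 1 or 2 had one and open where none had. The solid line is the median of all genes with a peak in all 4 libraries (0.793) and the dashed line that of all genes with none (0.26), and most open points lie above the dashed line.

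Genes that act with or upstream of Hox proteins had more regions per gene than the Hox genes examined. Regions per gene over all genes were not computed. The 8 TALE cofactor genes examined, whose products pair with Hox proteins on DNA, had 31 regions, 12 of them in all 4 libraries, and the 14 regulators of Hox expression, among them Polycomb subunits, had 33 regions at 12 of the genes, 16 in all 4. The shares found in all 4 libraries were 38.7% for the TALE list and 48.5% for the regulators, against 41.9% of all regions. Regions were counted by gene name, and such counts can be incomplete. Kmt2a, one of the regulators, had 0 regions by name but a promoter peak in all 4 libraries. The highest of each list were a Meis1 intron region at chr11:18924963-18925256, with 16.71, 16.95, 25.72 and 22.98 in control 1, control 2, IL-4 1 and IL-4 2, and the promoter of Ezh2, the Polycomb methyltransferase, with 24.64, 28.47, 20.89 and 17.6. None of the 12 or the 16 regions passed an adjusted p of 0.05 by limma, with median log2 changes of 0.101 and -0.205.

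A promoter peak was present at 7 of 8 TALE cofactor genes in each control library and at 4 in each IL-4 library. The 3 that differed were Meis2, Meis3 and Pbx2, named after their values were seen. The Pbx2 promoter had heights of 3.73 and 3.92 in controls 1 and 2, and the Meis3 promoter had 3.17 and 5.46, with no peak in either IL-4 library. Regions found in both controls and neither IL-4 library made up 4 of 31 for this list (12.9%), against 4.33% of all regions, and 1 region of the list, named for Pknox1, was found in both IL-4 libraries (3.62 and 5.56) and neither control. The macrophage markers had a like share of regions in the controls only, 3 of 25 (12.0%). That count leaves out Spi1 and Adgre1, which had promoter peaks but 0 regions by name. In the other lists the share was lower, with 1 of 33 (3.0%) for the regulators of Hox expression and 0 of 6 for the other lineage markers. Total peaks were 45250 and 41885 in controls 1 and 2, and 41978 and 39462 in IL-4 1 and IL-4 2. Whether library depth had a part was not tested. No test was made of these shares.

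Across the libraries, 45250 and 41885 peaks were called in controls 1 and 2 and 41978 and 39462 in IL-4 1 and IL-4 2, and the median height ran from 6.41 to 8.04. IL-4 2 had the fewest peaks and the lowest median. Read depth is unknown from these files, and a region with no peak in a library has no height there, which does not show that its chromatin was closed.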

How the data were processed

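ATAC-seq was measured in 2 control and 2 IL-4 libraries of BMDMs. The authors aligned reads to mm10 with BWA (0.7.10 in the submitters' processing notes), called peaks per library with MACS2 (2.0.10) at a q-value of at most 0.01, removed blacklisted artifacts and annotated peaks with HOMER (4.2). The deposited Peak Score was read as the -log10 of the q-value from its range; the files do not name its unit, and 133 to 603 peaks per library scored under 2. The rest was computed here. Peaks outside chromosomes 1 to 19, X and Y were left out, and the others were merged at 1 bp overlap. For the 25442 shared regions, limma 3.58.1 (R 4.3.3, trended eBayes, Benjamini-Hochberg over all regions) was run on log2 heights after quantile normalisation, and the script was tested on simulated data. DiffBind, used by the study, needs reads and was not run. TSSs, UTRs and sequence came from RefSeq GRCm38.p6, with noncoding genes and overlapping exons also from GENCODE. All 12 peaks of the 6 Hox regions described had the deposited TSS distance within 2 bp of that recomputed from it. Named were Hox regions in all 4 libraries that ranked among the 3 highest of their cluster or lay within 1 kb of a TSS, regions of 1 group only, the largest changes, and the highest region of the TALE and regulator lists and of other genes inside the clusters; all 6 regions described are given. The other 6 regions are not reported here. Members and lists were chosen with earlier results of these data known. Alternatives were another normalisation, another variance model, a height minimum, other merging rules, other windows and leaving out each library.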

Additional observations from a re-analysis of the deposited data

How the results depend on the processing

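With the replicate number as a block, the Hoxa4 log2 change stayed at 0.84, and its adjusted p was 0.707 by limma. The labels give a shared number and no shared animal or day, and within-group differences of same-numbered libraries had a Pearson r of 0.00677 over 25442 regions, so the numbers were not read as pairs. Over all regions the block moved the calls from 6 to 14, median centring to 8 and no variance trend to 0. None of the Hox regions described passed an adjusted p of 0.05 under any alternative run.

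Leaving out 1 library at a time gave a Hoxa4 change of 0.04 to 1.61. Such fits leave a group with 1 library, which is assumed to vary like the others. The number of Hox regions ran from 5 to 6, that of HoxA from 3 to 4, and those of HoxB, HoxC and HoxD stayed at 1, 0 and 1. Hox regions in every remaining library numbered 1 to 2, with 2 without control 2 (Hoxa4 and Hoxd12). Regions in every IL-4 library and no control numbered 0 to 1, with 1 without control 1 (Hoxd12) and 1 without IL-4 1, and regions in every control and no IL-4 library 0 to 1, with 1 without control 1 and 1 without control 2. Over all regions these 2 counts rose as well, to between 2634 and 5820 and to between 4389 and 8527. The number of Hox genes with a promoter peak in every library was 1 in each case, also with 500 bp or 2 kb around the TSS, windows chosen after seeing the data. In at least 1 library it was 3 to 4 without 1 library, 3 at 500 bp and 5 at 2 kb. A height minimum of 2, merging within 500 bp or only at 50 bp overlap and naming by any peak left 6 Hox regions, 1 of them in all libraries. Searching 200 bp around each centre left the number of Hox regions with each motif as it was.

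The height, if it is a -log10 q as read here, is a significance that rises with depth. Depth is unknown here, and its part in which library holds a weak region was not tested. Heights of the 5 regions absent from some library were not tested. With 2 libraries per group, the limma p-values rest on the spread between these libraries, moderated by eBayes towards that of all regions tested. The p-value and interval at Hoxa4 therefore do not measure its own spread alone. The labels do not say that the libraries came from separate animals.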
